A study of Mus musculus with 4 samples.

Results

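Transcripts of 8 genes of interleukin-1, inflammasome and prostaglandin signalling were followed through single cells of the mouse Achilles tendon. The genes were Il1a, Il1b, Il1rn, Il1r1, Nlrp3, Ptgs1, Ptgs2 and Ptges. Each was found by its symbol, with 1 listing, among the 33696 genes of all 4 libraries, and all 8 of 8 were detected in every library. The libraries were made by droplet-based single-cell RNA sequencing, with 1 library for each of 4 groups: adult injury, adult control, neonate injury and neonate control. Adult mice were 6 to 8 weeks old and neonates were at postnatal day 3. Injured libraries came from tendons that had been injured and control libraries from uninjured tendons, and all tissue was treated with collagenase and DNase to free the cells. Strain, sex, number of mice, kind of injury and time between injury and harvest are not in the labels, which leave unsaid if an injured mouse's age was taken when it was injured or when it was killed.

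Interleukin-1 alpha and beta are cytokines made mainly by myeloid cells, and they act through the receptor encoded by Il1r1 on fibroblasts, vessel cells and some lymphocytes. Il1rn encodes the receptor antagonist, which occupies that receptor without signalling. Nlrp3 encodes the sensor of an inflammasome, a protein complex that activates the protease which cuts the inactive precursor of interleukin-1 beta, so a transcript level does not give the amount of active cytokine. Ptgs1 and Ptgs2 encode the constitutive and the inducible cyclooxygenase, which make prostaglandin H from arachidonic acid. Ptges encodes the inducible microsomal synthase that turns prostaglandin H into prostaglandin E. In tendon fibroblasts, interleukin-1 is known to raise the inducible cyclooxygenase, chemokines and matrix-degrading enzymes.

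The cells kept numbered 4454 in the adult injury, 5814 in the adult control, 13112 in the neonate injury and 9559 in the neonate control library, and their median depths lay between 5555 UMIs (unique molecular identifiers, each marking 1 captured transcript) in the neonate injury library and 10349 in the neonate control library. Cells were put into classes by marker genes, none of which is among the 8 genes. Macrophages numbered 1187, 175, 1258 and 301 and stromal cells of the fibroblast lineage 1802, 3601, 8070 and 5678, in the same order of libraries. Neutrophils reached 50 cells in the adult injury library (126) and the neonate control library (97) only, and monocytes only in the adult injury library (71). Levels are counts per 1000000 UMIs of the summed cells of a class (CPM) with exact Poisson 95% intervals, shares of cells have exact binomial 95% intervals, and a ratio is the log2 of one CPM over another after adding 0.5 counts to each sum. Each group is 1 library, so no difference has a replicate check, no test between groups or of a difference between the ages was possible, and the intervals cover counting error only. Between 3 and 49 barcodes were shared by any pair of libraries. Xist was found without any Y-linked UMI in 90.3%, 95.6%, 76.2% and 0.0176% of stromal cells in the adult injury, adult control, neonate injury and neonate control libraries, so any comparison with the neonate control is also one of mostly Xist-positive with mostly Y-positive cells.

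The 250 bases before the transcription start are shown for Il1b, Ptgs2 and Ptgs1, because Il1b and Ptgs2 were the genes with the highest number of UMIs in injured adult tendon and Ptgs1 encodes the other cyclooxygenase. They are RefSeq sequences of build GRCm38.p6, matched by symbol, while the counts were made against GRCm39. Il1b lies on the minus strand with its window at chr2:129371140-129371389, Ptgs2 on the plus strand at chr1:150099781-150100030 and Ptgs1 on the plus strand at chr2:36230176-36230425. Each is written 5′ to 3′ on the strand of its gene, and capitals mark matches to any of 4 letter patterns.
Il1b: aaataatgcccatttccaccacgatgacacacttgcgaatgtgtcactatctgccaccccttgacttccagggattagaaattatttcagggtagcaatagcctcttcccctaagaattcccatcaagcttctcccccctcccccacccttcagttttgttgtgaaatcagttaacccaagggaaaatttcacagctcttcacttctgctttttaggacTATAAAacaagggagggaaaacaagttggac
Ptgs2: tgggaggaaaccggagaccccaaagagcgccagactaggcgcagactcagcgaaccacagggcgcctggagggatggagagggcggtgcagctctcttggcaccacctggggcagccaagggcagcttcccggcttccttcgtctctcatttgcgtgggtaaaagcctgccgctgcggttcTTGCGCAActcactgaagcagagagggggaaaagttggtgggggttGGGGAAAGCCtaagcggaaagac
Ptgs1: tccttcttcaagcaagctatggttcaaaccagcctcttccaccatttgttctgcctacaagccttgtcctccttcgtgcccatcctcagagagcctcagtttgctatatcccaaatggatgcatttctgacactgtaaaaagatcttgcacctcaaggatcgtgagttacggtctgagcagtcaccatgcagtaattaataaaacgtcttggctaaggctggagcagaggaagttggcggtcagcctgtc
The patterns were TATAAA (the TATA box, gene strand only), TTGCGCAA (a site of the C/EBP family, both strands), ACGTCA (the shared part of cyclic AMP response elements, both strands) and GGG followed by any 5 bases and CC (a loose form of the NF-kappaB site, both strands). Of 32851 RefSeq promoter windows of this length, 7.59%, 0.164%, 6.47% and 45.8% held them in that order. Il1b had TATAAA beginning 31 bases before the start, and Il1a, its neighbour on chromosome 2, had it 32 bases before. Ptgs2 had TTGCGCAA beginning 69 bases before the start and the loose NF-kappaB pattern 23 bases before. The Ptgs1 window held none of the 4 patterns. Of the 8 genes, 2 had the TATA box, 1 the C/EBP pattern, 0 the cyclic AMP pattern and 5 the loose NF-kappaB pattern in at least 1 of their 12 annotated starts. These counts are per gene, and some of the genes have more than 1 start, while the shares of all promoters are per window. They are not like for like, and no excess was read from them. These matches describe letters in a window and show no binding.

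The genes fell into a myeloid and a stromal set by the cells that held their UMIs. Macrophages held 85.2% of all Il1a UMIs in the adult injury, 71.7% in the adult control, 92.7% in the neonate injury and 61.0% in the neonate control library. For Nlrp3 the macrophage shares were 75.4%, 63.0%, 85.2% and 55.6%, and for Il1rn they were 78.6%, 60.0%, 86.7% and 54.3%, in the same order. Stromal cells held 65.2%, 96.9%, 82.3% and 85.2% of Ptgs2 UMIs and 78.1%, 95.2%, 91.3% and 84.9% of Ptges UMIs in that order of libraries. Il1r1 was spread over stromal cells (66.1%, 65.7%, 72.8% and 63.4%), mural cells, which wrap small vessels, and endothelial cells. Since macrophages were 26.7% of cells in the adult injury library against 3.01% in its control, the share of UMIs in a class follows both its number of cells and its level per cell.

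**Figure D1:**
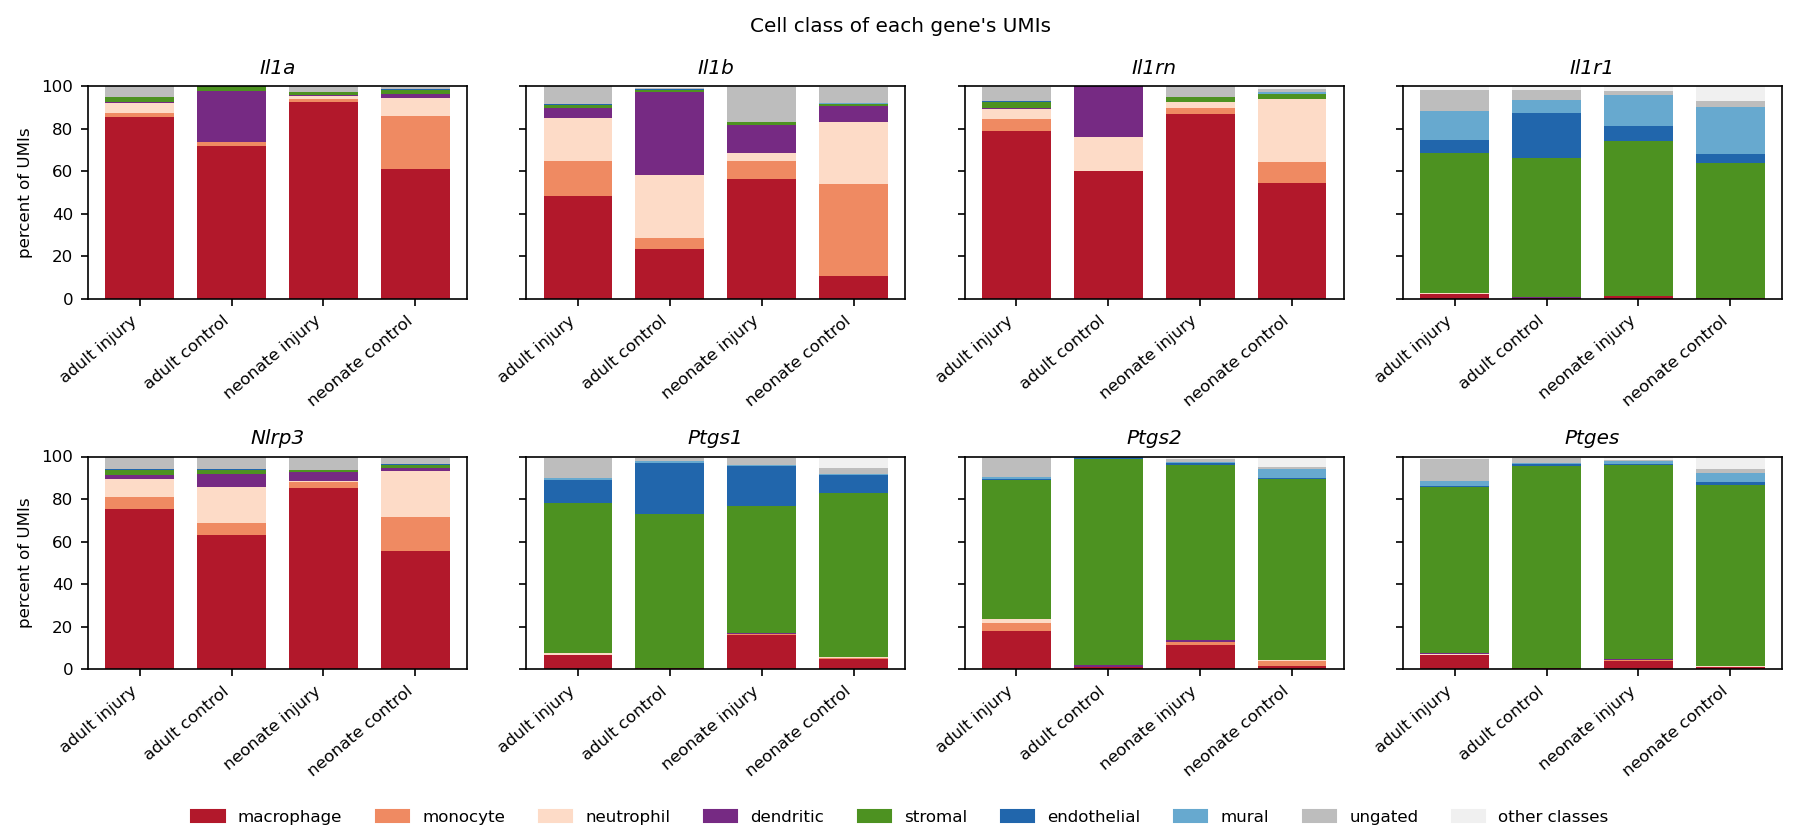
Stacked bars give the percent of each gene's UMIs that lay in each cell class, for the 4 libraries of each panel, with ungated cells in grey. Il1a, Il1b, Il1rn and Nlrp3 lay mostly in myeloid cells and Il1r1, Ptgs1, Ptgs2 and Ptges mostly in stromal cells, and macrophages held 18.1% of Ptgs2 UMIs in the adult injury library.

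The source of Il1b differed between libraries. Adult injury macrophages held 48.4% of the 18699 Il1b UMIs of their library, neutrophils 20.5% and monocytes 16.1%. In the adult control library, with 488 UMIs, 14 dendritic cells held 39.1%, 4 neutrophils 29.7% and macrophages 23.4%. In the neonate injury library macrophages held 56.2% of 2640 UMIs, and in the neonate control library monocytes held 43.2% of 2493 UMIs, neutrophils 29.5% and macrophages 10.6%. Over all cells, Il1b stood at 273 CPM in the adult injury library against 7.74 CPM in the adult control library, next to 31.7 CPM in the neonate injury library against 22.4 CPM in the neonate control library. In such sums, more myeloid cells and more Il1b per cell cannot be told apart.

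Neutrophils, the short-lived granulocytes that enter injured tissue early, had the highest Il1b of the 7 classes in the adult injury library. In the neonate control library 42 monocytes stood above its neutrophils at 2252 CPM [2119, 2390]. The 8 dendritic cells of that library, with 177 Il1b UMIs among 92005 UMIs, stood above its neutrophils too. Adult injury neutrophils had 10471 CPM [10142, 10807] with a UMI in 96.0% of 126 cells, and neonate control neutrophils had 1418 CPM [1318, 1525] with a UMI in 64.9% of 97 cells. The 4 neutrophils of the adult control and the 9 of the neonate injury library had 9323 and 5721 CPM. In the adult injury library the order was neutrophils, monocytes at 4400 CPM [4244, 4560], 49 dendritic cells at 1645 CPM [1535, 1760], macrophages at 837 CPM [819, 854], and then endothelial cells at 18.5 CPM [14.7, 23.1], mural cells at 7.22 CPM [4.04, 11.9] and stromal cells at 6.90 CPM [6.11, 7.76]. The intervals of mural and stromal cells overlapped, and those of the other neighbours among these 7 classes did not.

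Whether the low Il1b of stromal cells is their own expression was not tested. In the adult injury library 14.2% of stromal cells had an Il1b UMI at a median depth of 19635.5 UMIs, next to 11.7% of endothelial cells at 6690 and 10.5% of mural cells at 9768. Stromal cells had 0.611 Il1rn UMIs per Il1b UMI there, close to the 0.553 of macrophages, whereas neutrophils had 0.0855. In the adult control library 0.111% of stromal cells had an Il1b UMI. Adult injury endothelial cells had 20 Il1rn and 80 Il1b UMIs (ratio interval 0.145 to 0.412), so the non-myeloid classes did not all share 1 ratio. T or NK cells of the adult injury library had an Il1b UMI in 3.85% of 52 cells. The part of RNA free in the suspension in these low levels was not tested, and stromal Il1rn at 4.21 CPM and Nlrp3 at 4.66 CPM in the adult injury library are given with the same limit.

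**Figure D2:**
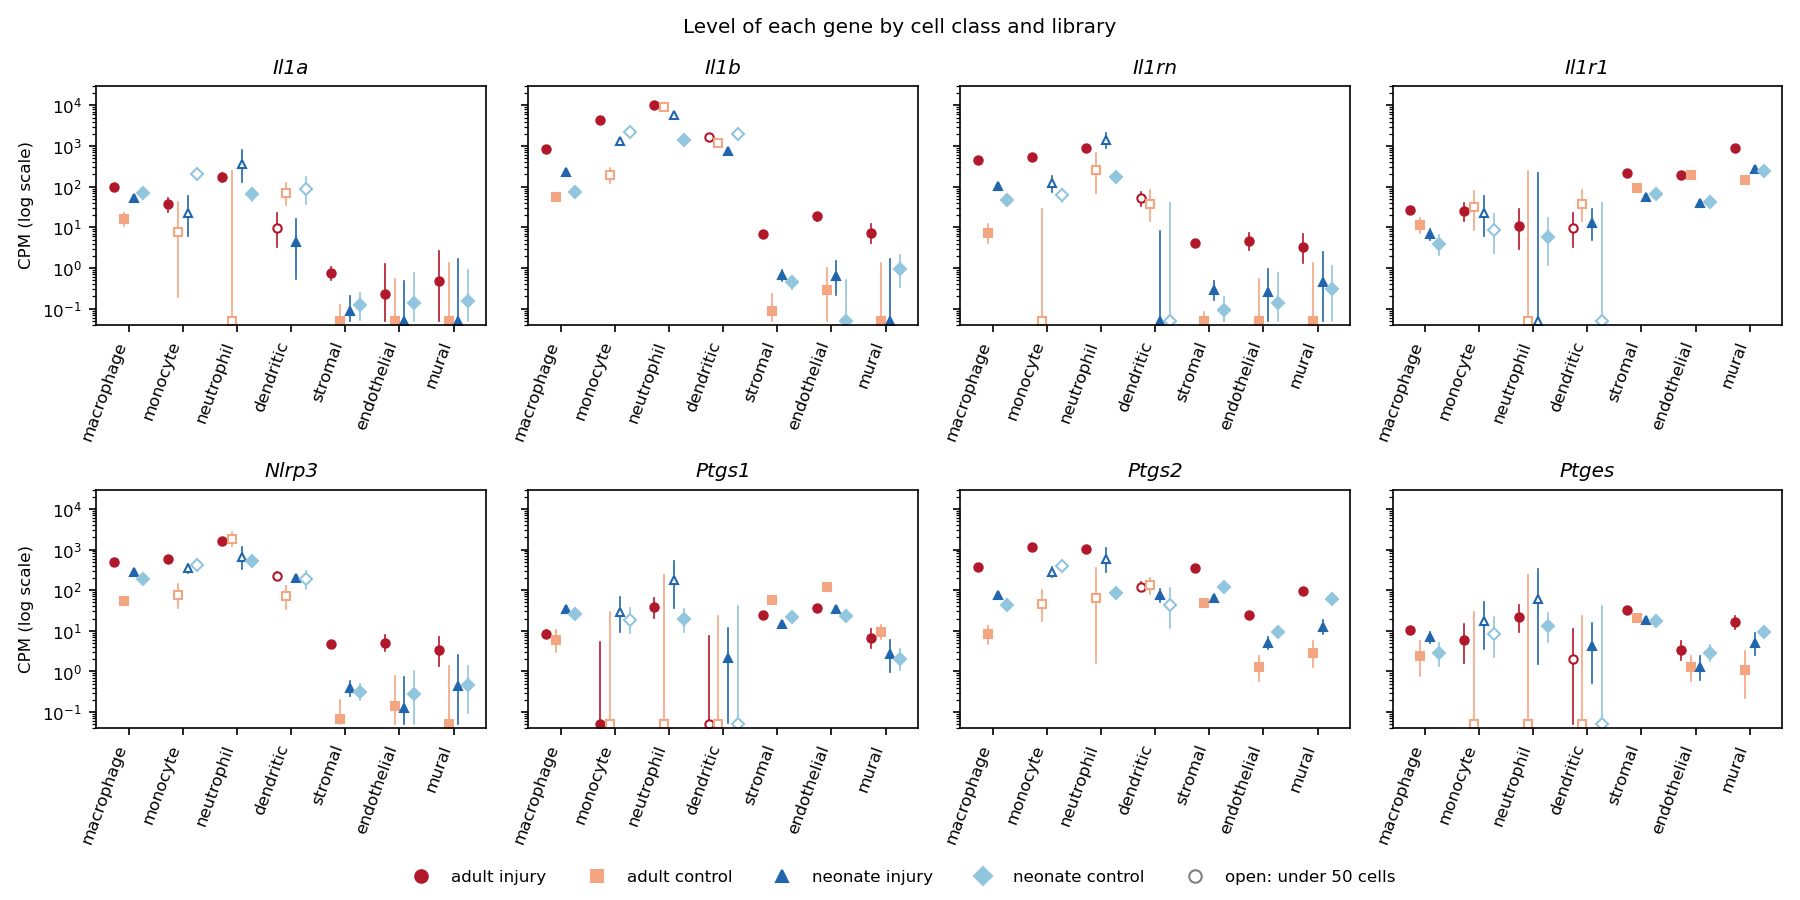
Points give CPM on a log axis for each gene in 7 cell classes and 4 libraries, lines give exact Poisson 95% intervals, open points mark classes with under 50 cells, and values of 0 are drawn at the bottom of the axis. Il1b in adult injury neutrophils stood at 10471 CPM and in adult injury stromal cells at 6.90 CPM, and Ptgs2 stood at 355 CPM in adult injury stromal cells.

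Macrophages of injured adult tendon carried far more transcripts of the ligand, the antagonist, the sensor and the inducible cyclooxygenase than those of uninjured adult tendon. Il1b stood at 837 CPM in adult injury and 55.2 CPM in adult control macrophages, and at 227 CPM in neonate injury and 73.8 CPM in neonate control macrophages. The adult injury value stands apart from the other 3. The log2 ratio of injury over control was 3.91 [3.65, 4.20] in adults and 1.62 [1.43, 1.81] in neonates. The share of macrophages with an Il1b UMI was 47.9% in the adult injury, 7.43% in the adult control, 20.4% in the neonate injury and 11.3% in the neonate control library. With every cell thinned to 1000 UMIs, which removes the difference in depth, the shares were 27.2%, 3.79%, 10.7% and 4.44% in the same order.

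Of the 8 genes, Il1rn had the highest adult ratio in macrophages. Macrophages had 463 CPM in the adult injury and 7.27 CPM in the adult control library, next to 102 CPM in the neonate injury and 45.9 CPM in the neonate control library. The log2 ratios were 5.95 [5.27, 6.83] in adults and 1.14 [0.90, 1.40] in neonates. Macrophages thus held 0.553 Il1rn UMIs per Il1b UMI in the adult injury library against 0.132 [0.0713, 0.226] in the adult control library, next to 0.448 in the neonate injury against 0.623 [0.510, 0.759] in the neonate control library. The adult control ratio rests on 15 Il1rn and 114 Il1b UMIs. Neutrophils and monocytes of the adult injury library held less antagonist per ligand, at 0.0855 [0.0762, 0.0957] and 0.119 [0.107, 0.133] Il1rn UMIs per Il1b UMI.

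Il1a, whose precursor is active without cleavage, went in opposite directions at the 2 ages. Macrophages had 100 CPM in the adult injury and 16.0 CPM in the adult control library, a log2 ratio of 2.62 [2.15, 3.19]. Neonate injury macrophages had 52.5 CPM and neonate control macrophages 68.7 CPM, a log2 ratio of -0.39 [-0.63, -0.15]. The adult control value was the lowest of the 4 and the adult injury value the highest. For each Il1b UMI, macrophages held 0.120 Il1a UMIs in the adult injury and 0.289 in the adult control library, next to 0.232 in the neonate injury and 0.932 in the neonate control library.

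Nlrp3 stood at 498 CPM in adult injury and 52.8 CPM in adult control macrophages, with a log2 ratio of 3.23 [2.96, 3.52]. In neonates it stood at 279 CPM in the injured and 191 CPM in the control library, with a log2 ratio of 0.55 [0.42, 0.68]. It was the most widely detected of the 8 genes in adult injury macrophages, with a UMI in 71.5% of them, against 22.3% in adult control, 44.4% in neonate injury and 51.8% in neonate control macrophages. The neonatal shares run against the neonatal CPM, at median depths of 4904 UMIs after injury and 11675 UMIs in the control, and no order was read from them. Neutrophils of the adult injury library had 1668 CPM of Nlrp3 and those of the neonate control library 509 CPM.

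Ptgs2 was also high in macrophages of the adult injury library. It stood at 369 CPM [358, 381] there against 8.24 CPM [4.80, 13.2] in adult control macrophages, which had 17 UMIs in 4 of 175 cells. Neonate injury macrophages had 75.1 CPM and neonate control macrophages 42.9 CPM. The log2 ratios were 5.44 [4.80, 6.27] in adults and 0.81 [0.55, 1.08] in neonates. Monocytes and neutrophils of the adult injury library had 1172 and 1026 CPM. The 8 stromal markers summed to 1833, 540, 1175 and 892 CPM in macrophages of the adult injury, adult control, neonate injury and neonate control libraries, against 69559 CPM in adult injury stromal cells, and their part in macrophage Ptgs2 was not tested.

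The other 3 genes were low in macrophages. Ptgs1 stood at 8.60 CPM in adult injury, 5.81 CPM in adult control, 34.0 CPM in neonate injury and 25.9 CPM in neonate control macrophages, so the ages differed more than injury and control did. Ptges stood at 10.4, 2.42, 6.87 and 2.78 CPM and Il1r1 at 27.3, 11.6, 6.87 and 3.90 CPM in the same order, with 5 and 24 UMIs in the adult control.

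In all, 7 of the 8 genes were at least 2-fold higher and 0 were at least 2-fold lower in adult injury than in adult control macrophages, where Ptgs1 (log2 ratio 0.51 [-0.31, 1.57]) was the exception. Of all 10707 genes with at least 50 UMIs over both libraries, 13.3% were at least 2-fold higher and 9.01% at least 2-fold lower, with a median log2 ratio of -0.05 against 2.93 for the 8 genes. In neonate injury over neonate control macrophages, 3 of 8 (Il1b, Il1rn and Ptges) were at least 2-fold higher and 0 lower, against 7.59% and 8.29% of 10135 genes. Of the 8 genes, 6 reached 50 UMIs in the comparison of the control libraries, where 0 were higher and 5 were at least 2-fold lower in adult control than in neonate control macrophages, against 10.4% and 9.31% of 8817 genes. Those 5 were Il1a, Il1rn, Nlrp3, Ptgs1 and Ptgs2, with log2 ratios between -2.62 and -1.85, while Il1b stood at -0.41 [-0.75, -0.10].

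**Figure D3:**
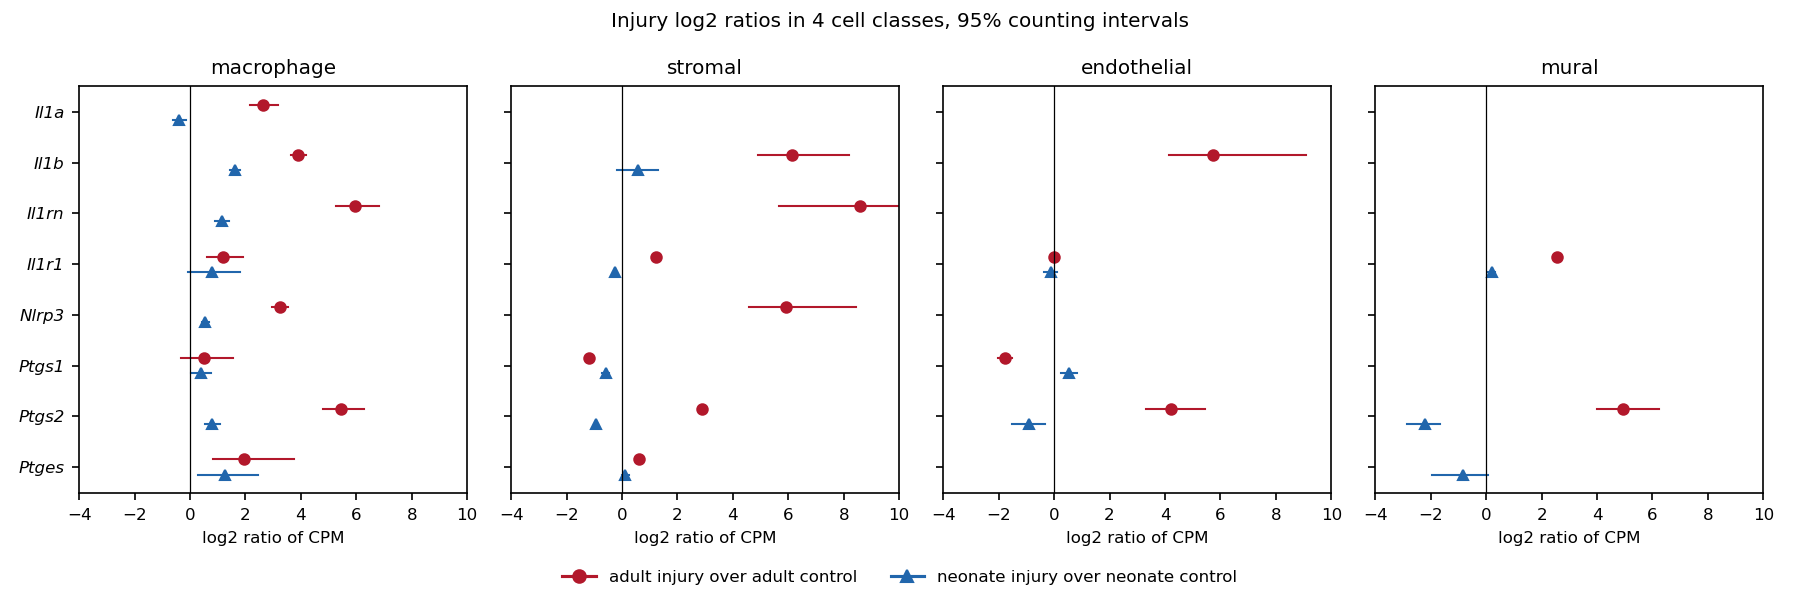
Points give the log2 ratio of CPM of injury over control in adults (circles) and neonates (triangles) for genes with at least 50 UMIs over both libraries, in 4 cell classes, with lines for exact 95% counting intervals, which stop at the edge of the plot. In macrophages the adult ratio of Il1b was 3.91 and the neonate ratio 1.62, and in stromal cells the ratios of Ptgs2 were 2.87 and -0.94; stromal and endothelial Il1b, Il1rn and Nlrp3 rest on low levels.

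Cell makeup within the macrophage class moved with these values. Resident-marker cells had at least a share of 0.5 of the resident markers (such as Lyve1, Folr2 and Timd4). This share also had to exceed their share of lipid-associated markers. They numbered 120 of 1187 in the adult injury, 127 of 175 in the adult control, 327 of 1258 in the neonate injury and 232 of 301 in the neonate control library. Cells with such a share of lipid-associated markers (such as Spp1, Gpnmb and Trem2) and a lower share of resident markers numbered 779, 14, 467 and 38 in that order. Resident-marker cells had 323 CPM of Il1b in the adult injury against 13.7 CPM in the adult control library, a log2 ratio of 4.53. In neonates the same cells had 15.3 CPM in the injured library and were close to the control, with a log2 ratio of 0.25. Lipid-associated-marker cells of neonates had 283 CPM in the injured and 314 CPM in the control library. Within each of these neonatal subsets the libraries were thus close in Il1b, while the adult injury library was higher within both, with 764 CPM against 311 CPM in the 14 lipid-associated-marker cells of the adult control library. Macrophages in neither subset had 1434 CPM of Il1b in the adult injury (288 cells) and 149 CPM in the adult control library (34 cells). In neonates they had 343 CPM in the injured (464 cells) and 299 CPM in the control library (31 cells).

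Il1rn and Ptgs2 were also higher in resident-marker cells of the adult injury than of the adult control library. Resident-marker cells had 241 CPM of Il1rn in the adult injury and 8.07 CPM in the adult control library, next to 23.6 CPM in the neonate injury and 15.8 CPM in the neonate control library. Their Ptgs2 stood at 140 CPM in the adult injury and 1.86 CPM in the adult control library, next to 19.2 CPM in the neonate injury and 39.6 CPM in the neonate control library. Neonatal resident-marker cells were therefore lower in Ptgs2 after injury (log2 ratio -1.03), unlike neonatal macrophages as a whole. Lipid-associated-marker cells of neonates had 93.5 CPM [82.4, 106] of Ptgs2 in the injured and 53.3 CPM [35.1, 77.5] in the 38 cells of the control library, so the neonatal subsets differed in direction. The 7 monocyte markers summed to 513, 244, 296 and 60.7 CPM and the 13 neutrophil markers to 191, 30.0, 144 and 71.5 CPM in macrophages of the adult injury, adult control, neonate injury and neonate control libraries, and their part in the result was not tested.

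**Figure D4:**
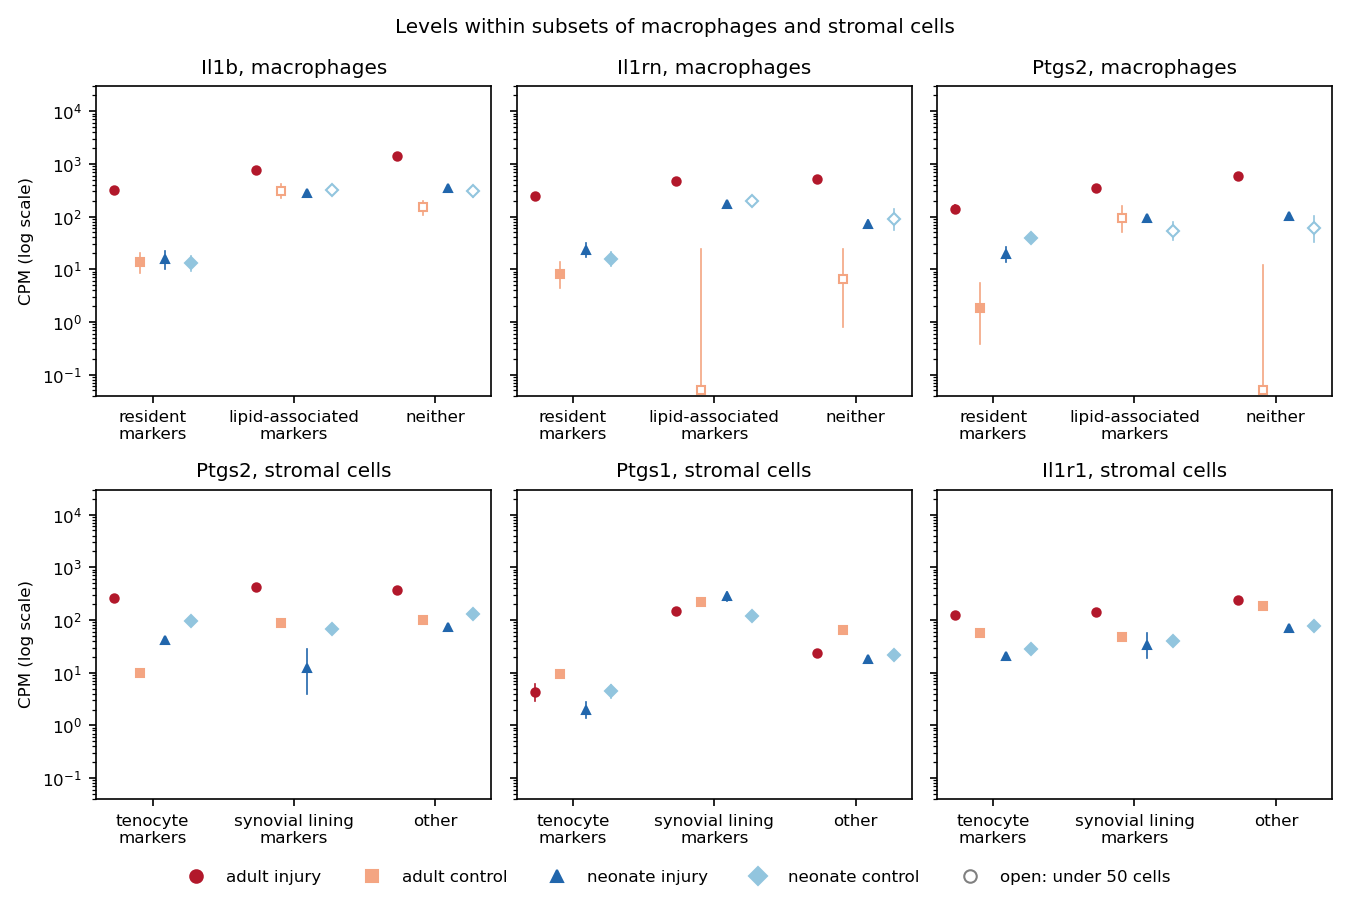
Points give CPM on a log axis within subsets of macrophages (upper row) and stromal cells (lower row) by library, with exact Poisson 95% intervals, open points for under 50 cells and values of 0 at the bottom. Il1b in resident-marker macrophages stood at 323 CPM in the adult injury library against 13.7 CPM in the adult control, and Ptgs1 was high in synovial lining cells of every library.

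Il1b was concentrated in few cells. Of adult injury macrophages, 27.4% held at least 5 Il1b UMIs, 11.0% at least 20 and 1.10% at least 100, with 248 in the highest cell, and the top 10% of macrophages held 71.4% of the UMIs. In adult control macrophages 4.57% held at least 5 and the highest held 24. In neonate injury macrophages 7.31% held at least 5 and the highest held 51, against 5.65% and 44 in neonate control macrophages. Macrophages with Il1b more often held the partner genes too. In the adult injury library, 86.5% of the 569 macrophages with an Il1b UMI had an Nlrp3 UMI, against 57.8% of the 618 without. For Il1rn the shares were 74.7% and 38.7%, and for Ptgs2 55.7% and 27.0%. Cells with more UMIs in all detect more of every gene, and these shares were not corrected for depth.

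**Figure D5:**
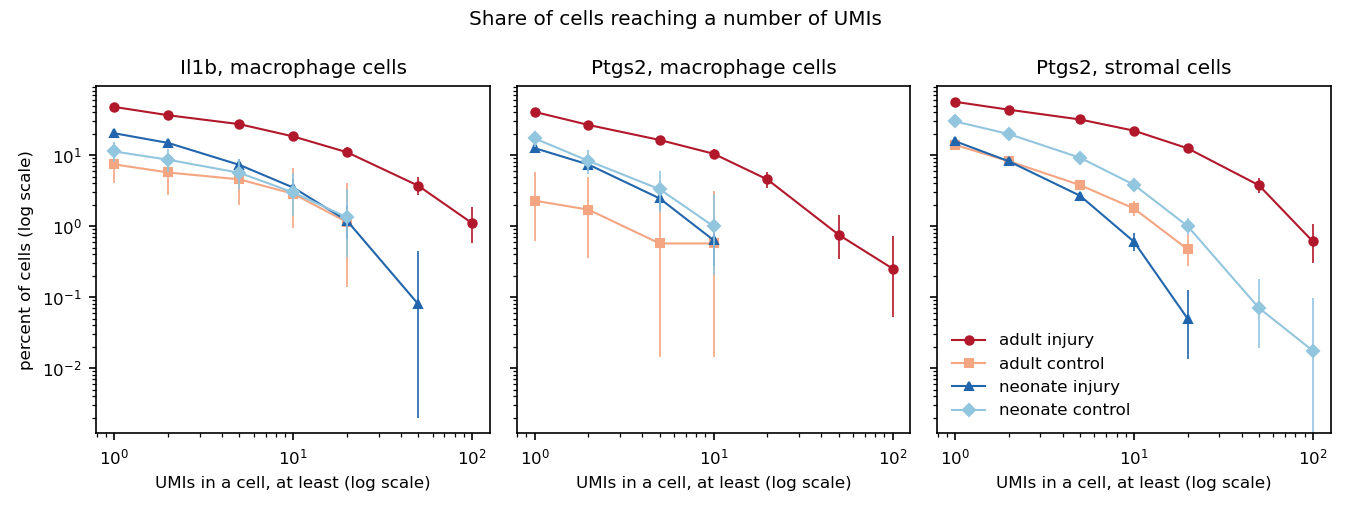
Lines give the percent of cells (log axis) that held at least a given number of UMIs (log axis) of Il1b or Ptgs2, by library, with exact binomial 95% intervals; points with no cell are left out. In the adult injury library 11.0% of macrophages held at least 20 Il1b UMIs and 12.5% of stromal cells at least 20 Ptgs2 UMIs.

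In stromal cells, the fibroblasts and tenocytes that build the tendon matrix, Ptgs2 went in opposite directions after injury at the 2 ages. It stood at 355 CPM [349, 361] in adult injury and 48.4 CPM [46.4, 50.4] in adult control cells, a log2 ratio of 2.87 [2.81, 2.94]. It stood at 63.8 CPM [61.7, 65.9] in neonate injury and 122 CPM [119, 125] in neonate control cells, a log2 ratio of -0.94 [-0.99, -0.88]. The uninjured libraries were in the reverse order of the injured ones: adult control cells were below neonate control cells, with a log2 ratio of -1.34 [-1.40, -1.27]. A Ptgs2 UMI was found in 56.6% of adult injury, 14.0% of adult control, 15.8% of neonate injury and 30.0% of neonate control stromal cells, and in 19.1%, 3.42%, 4.62% and 7.85% after thinning to 1000 UMIs. At least 20 Ptgs2 UMIs were held by 12.5% of adult injury, 0.472% of adult control, 0.0496% of neonate injury and 1.00% of neonate control stromal cells.

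The adult difference was found in every stromal subset and was largest in cells with tenocyte markers. These had 263 CPM of Ptgs2 in the adult injury and 9.91 CPM in the adult control library, a log2 ratio of 4.73. Stromal cells without tenocyte or synovial lining markers had 373 and 102 CPM, a log2 ratio of 1.87. In neonates the same 2 subsets were lower after injury, at 42.4 CPM against 96.0 CPM and at 74.4 CPM against 130 CPM. Among neonate injury cells that had Y-linked UMIs but lacked Xist, the log2 ratio over the neonate control was -0.43, so the neonatal difference was smaller in cells that match the control in this respect. Tenocyte-marker cells made up 293 of 1802 stromal cells in the adult injury library against 1974 of 3601 in the adult control.

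Early response genes are induced within minutes by tissue digestion, as Ptgs2 can be, so 8 of them (Fos, Fosb, Jun, Junb, Egr1, Atf3, Ier2 and Ier3) were set beside it, a list chosen after the data were seen. In stromal cells they summed to 6144 CPM in the adult injury against 9709 CPM in the adult control library. Of the 8, 0 were at least 2-fold higher and 2 lower, against 16.3% and 15.2% of all genes. In neonates they summed to 10366 CPM after injury against 14236 CPM in the control. There 0 were at least 2-fold higher and 3 lower, against 8.75% and 12.2% of all genes. In adult stromal cells the sum of these genes thus stood lower where Ptgs2 stood higher. In neonatal stromal cells both stood lower after injury. In adult macrophages their sum stood higher together with Ptgs2, at 10087 CPM in the adult injury against 7029 CPM in the adult control library. Of the 8, 2 were at least 2-fold higher and 0 lower, against 13.3% and 9.01% of all genes. Junb stood at 2932 CPM in adult injury and 1266 CPM in adult control macrophages, and Ier3 at 1009 and 378 CPM. In neonatal macrophages the sum was 12813 CPM in the injured and 13780 CPM in the control library. The part of digestion in the level of Ptgs2 was not tested.

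Ptgs1, the constitutive cyclooxygenase, was lower in injured than in control stromal cells at both ages. Stromal cells had 24.8 CPM in the adult injury and 57.0 CPM in the adult control library (log2 ratio -1.20 [-1.31, -1.09]), and 831 UMIs in 8070 neonate injury cells and 1490 UMIs in 5678 neonate control cells (-0.58 [-0.71, -0.46]). Among neonate injury cells that had Y-linked UMIs but lacked Xist the neonatal log2 ratio was 0.19, which is the other direction. Stromal cells held 0.0700 Ptgs1 UMIs per Ptgs2 UMI in the adult injury and 1.18 in the adult control library, next to 0.235 in the neonate injury and 0.184 in the neonate control library. The highest Ptgs1 was in cells with synovial lining markers such as Prg4, which coats joint and tendon surfaces. They had 148 CPM in the adult injury (58 cells), 220 CPM in the adult control (372 cells), 284 CPM in the neonate injury (50 cells) and 120 CPM in the neonate control library (132 cells). Tenocyte-marker cells had between 1.98 and 9.40 CPM, so the subsets did not overlap in any library.

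Ptges stood at 32.6 CPM in adult injury and 21.1 CPM in adult control stromal cells (log2 ratio 0.63 [0.51, 0.75]), and at 18.6 CPM in neonate injury and 17.0 CPM in neonate control cells (0.12 [0.00, 0.25]). In adult stromal cells without tenocyte or lining markers it was not higher, with 35.8 CPM in the adult injury and 41.7 CPM in the adult control library and a log2 ratio of -0.22. Ptges and Ptgs2 were set side by side per cell, without correction for depth, which raises detection of both. In the adult injury library 47.8% of stromal cells with a Ptgs2 UMI had a Ptges UMI, against 27.1% of those without, and in the adult control library the shares were 29.2% and 16.6%.

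Il1r1, the signalling receptor, was higher in mural than in stromal and endothelial cells in 3 of the 4 libraries, the exception being the adult control, where endothelial cells stood above mural cells. In the adult injury library mural cells had 873 CPM and in the adult control library 148 CPM, a log2 ratio of 2.56 [2.41, 2.72]. In neonates they had 272 CPM in the injured and 237 CPM in the control library, a log2 ratio of 0.20 [0.06, 0.33]. Stromal cells had 215 CPM in the adult injury and 92.8 CPM in the adult control library (1.21 [1.16, 1.27]), and 55.4 CPM in the neonate injury and 66.3 CPM in the neonate control library (-0.26 [-0.33, -0.19]). The neonatal stromal ratio was 0.03 in cells that had Y-linked UMIs but lacked Xist. Stromal cells without tenocyte or lining markers were closer in adults, with 241 CPM in the adult injury and 184 CPM in the adult control library. Tenocyte-marker cells had 124 and 57.8 CPM and lining-marker cells 141 and 46.6 CPM in that order. In neonates the cells without these markers had 71.9 CPM in the injured and 76.0 CPM in the control library. The part of subset makeup in the stromal ratio was not tested. Endothelial Il1r1 differed more between the ages than between injury and control, with 191 and 189 CPM in adult injury and adult control cells and 39.3 and 42.6 CPM in neonate injury and neonate control cells. Among immune classes, 52 T or NK cells of the adult injury library had 425 CPM and 22 of the adult control library 289 CPM. Neutrophils of the adult injury library had 10.9 CPM.

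In mural and endothelial cells Ptgs2 also stood above the control in adults and below it in neonates. Mural cells had 93.4 CPM in the adult injury and 2.91 CPM in the adult control library (log2 ratio 4.92 [4.00, 6.24]), and 12.6 CPM in the neonate injury and 59.5 CPM in the neonate control library (-2.21 [-2.84, -1.68]). Endothelial cells had 24.8 CPM in the adult injury and 1.27 CPM in the adult control library (4.21 [3.30, 5.45]), and 5.07 CPM in the neonate injury and 9.45 CPM in the neonate control library (-0.89 [-1.50, -0.31]). The 8 stromal markers moved with these values in adults. They summed to 6952 CPM in adult injury and 1314 CPM in adult control endothelial cells, and to 2037 CPM in neonate injury and 2208 CPM in neonate control endothelial cells. In mural cells they summed to 28930 CPM in the adult injury and 3434 CPM in the adult control library, and to 24465 CPM in the neonate injury and 15346 CPM in the neonate control library. Stromal cells of the adult injury library had 69559 CPM of these markers and 355 CPM of Ptgs2, and the part of stromal RNA in the Ptgs2 of vessel cells was not tested. A Ptgs2 UMI was found in 15.4% of adult injury endothelial cells at a median depth of 6690 UMIs, next to 1 of 52 T or NK cells of that library at 6883.5 UMIs. These shares are not like for like. Immune cells were gated to at most 1% of UMIs in stromal markers, and endothelial cells were not. Ptgs1 in endothelial cells stood at 35.9 CPM in the adult injury and 123 CPM in the adult control library (-1.77 [-2.03, -1.53]), and at 33.9 CPM in the neonate injury and 23.2 CPM in the neonate control library (0.55 [0.26, 0.84]).

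Of the 7 genes that reached 50 UMIs in adult injury over adult control stromal cells, 5 were at least 2-fold higher and 1 at least 2-fold lower, against 16.3% and 15.2% of 15337 genes. Those 5 were Ptgs2, Il1r1, Il1b, Il1rn and Nlrp3, and Il1b, Il1rn and Nlrp3 among them stood at 6.90, 4.21 and 4.66 CPM in adult injury stromal cells. Il1r1 was under 2-fold higher in cells without tenocyte or lining markers, at 241 CPM in adult injury and 184 CPM in adult control cells. In neonate injury over neonate control stromal cells, 0 of 5 were at least 2-fold higher and 0 lower, against 8.75% and 12.2% of 16656 genes. In adult control over neonate control stromal cells, 1 of 4 was at least 2-fold higher (Ptgs1, 1.35 [1.25, 1.44]) and 1 lower (Ptgs2), against 11.7% and 18.1% of 16304 genes.

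The genes that interleukin-1 is known to raise in fibroblasts were taken as a list of 15 that holds none of the 8 genes. In adult injury over adult control stromal cells, 10 of the 14 measured were at least 2-fold higher and 0 lower, against 16.3% and 15.2% of all genes. Their median log2 ratio was 2.49 against 0.02 over all genes. The list was not higher in stromal cells alone. In adult injury over adult control macrophages, 9 of 11 were at least 2-fold higher and 0 lower, against 13.3% and 9.01% of all genes. The adult median was 1.33 against 0.11 over all genes in mural cells, but -0.05 against 0.02 in endothelial cells. In stromal cells, the chemokine gene Cxcl5 stood at 139 CPM in adult injury cells against 3 UMIs in adult control cells (log2 ratio 10.82 [9.49, 13.32]), and Cxcl2 at 164 CPM against 10.6 CPM. Lif, a cytokine of the interleukin-6 family, stood at 20.8 CPM against 1.32 CPM, and the collagenase gene Mmp13 at 11.6 CPM against 0 UMIs, at least 175-fold higher over a floor of 3 counts in the summed cells. In neonate injury over neonate control stromal cells 1 of 13 was at least 2-fold higher and 5 lower, against 8.75% and 12.2% of all genes. Their median was -0.74 against -0.06 over all genes. Ccl2, which draws monocytes, stood at 81.3 CPM in neonate injury and 355 CPM in neonate control cells, and Il6 at 120 and 298 CPM. In neonates the list's median was -0.76 in macrophages, -1.20 in mural, -1.93 in endothelial, -1.40 in Schwann and -2.54 in myogenic cells. Over all genes the median lay between -0.06 and 0.12 in these classes. Erythroid cells went the other way, at 0.37 against -0.36 over all genes.

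The same list was low in uninjured adult cells. In adult control over neonate control stromal cells, 2 of 13 were at least 2-fold higher and 10 lower, against 11.7% and 18.1% of all genes. Their median log2 ratio was -2.29 against -0.14 over all genes. Il6 stood at 29.9 CPM in adult control and 298 CPM in neonate control cells. Mmp3, the stromelysin gene, went the other way, with 33.2 CPM in adult control and 1.14 CPM in neonate control cells. In stromal cells the neonate control library thus stood above the adult control library in Ptgs2 and in most genes of the list. The list's median log2 ratio was also below that of all genes in other classes. It was -2.14 against 0.05 in macrophages, -2.98 against -0.03 in mural and -0.46 against 0.16 in endothelial cells. In Schwann cells it was -2.66 against 0.03 and in myogenic cells -1.63 against -0.21.

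Among the other genes of the pathways, the interleukin-33 receptor gene Il1rl1 stood in stromal cells at 276 CPM in the adult injury and 0.375 CPM in the adult control library, next to 27.0 CPM in the neonate injury and 10.9 CPM in the neonate control library. Of 9 other interleukin-1 family genes measured in adult stromal cells, 4 were at least 2-fold higher after injury and 0 lower, against 16.3% and 15.2% of all genes. In adult macrophages, 5 of 15 genes of interleukin-1 receptor signalling were at least 2-fold higher and 0 lower, against 13.3% and 9.01% of all genes. They included Tnfaip3 and Nfkbia, which restrain the pathway, with 748 CPM in adult injury against 132 CPM in adult control and 2537 CPM against 731 CPM. In neonatal macrophages 0 of 15 were at least 2-fold higher and 0 lower, against 7.59% and 8.29% of all genes.

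Of 14 other inflammasome genes measured in adult injury over adult control macrophages, 2 were at least 2-fold higher and 2 lower, and the median log2 ratio was -0.06. These shares are near those of all genes, of which 13.3% were higher and 9.01% lower with a median of -0.05. Mefv, which encodes the sensor pyrin, stood at 39.8 CPM in the adult injury against 3 UMIs in the adult control library (4.55 [3.22, 7.06]). Txnip, whose product binds thioredoxin, stood at 187 CPM in adult injury and 540 CPM in adult control macrophages. Casp1, the protease of the complex, and Pycard, its adaptor, were chosen after their values were seen, and stood at 22.4 CPM in adult injury against 44.6 CPM in adult control macrophages (Casp1) and at 108 CPM against 113 CPM (Pycard).

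Among the enzymes around the cyclooxygenases, Ptgis, which makes prostacyclin, was lower in injured than in control stromal cells at both ages. It stood at 71.7 CPM in adult injury and 520 CPM in adult control stromal cells (log2 ratio -2.86 [-2.91, -2.80]), and at 88.7 CPM in neonate injury and 209 CPM in neonate control cells (-1.24 [-1.29, -1.19]). Of 7 synthesis genes measured in stromal cells, 0 were at least 2-fold higher and 2 lower in adult injury over adult control, and the counts were the same in neonates. Of all genes, 16.3% were higher and 15.2% lower in adults, and 8.75% were higher and 12.2% lower in neonates. Hpgd, which inactivates prostaglandins, stood at 22.3 CPM in adult injury and 311 CPM in adult control macrophages, and at 127 CPM in neonate injury and 126 CPM in neonate control macrophages. In stromal cells Hpgd stood at 5.40 CPM in the adult injury and 32.9 CPM in the adult control library. Of 5 breakdown and transport genes measured in adult macrophages, 1 was at least 2-fold higher and 1 lower, against 13.3% and 9.01% of all genes.

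Among the receptors for prostaglandins, Ptger4, a receptor for prostaglandin E, stood at 59.5 CPM in adult injury and 65.4 CPM in adult control macrophages. It stood at 55.0 CPM in neonate injury and 21.4 CPM in neonate control macrophages. In stromal cells Ptger4 stood at 32.9 CPM in the adult injury and 13.4 CPM in the adult control library. Of 7 receptor genes measured in adult stromal cells, 2 were at least 2-fold higher after injury and 1 lower, against 16.3% and 15.2% of all genes, so the count is near that of genes in general. Leukotriene enzymes were measured beside them in macrophages, where Alox5, the lipoxygenase that starts leukotriene synthesis, stood at 32.3 CPM in adult injury and 269 CPM in adult control cells, and Ltc4s at 30.0 and 313 CPM. Of the 4 leukotriene genes measured there, 0 were at least 2-fold higher and 2 lower, against 13.3% and 9.01% of all genes.

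The pattern of each gene over the units was set beside that of 12579 other genes, where a unit is a cell class in a library with at least 50 cells (33 units, which share 4 libraries, and in which the myeloid classes have the high values). Pearson r of log2(CPM + 1) is given as a description. Il1b was most like Clec4e (0.97), Nlrp3 (0.97) and Lilra6 (0.96), and Il1a most like Fcgr4 (0.98), Clec4n and Clec4d (both 0.97). Il1rn was most like Cd300lb and Clec4e (both 0.96), and Nlrp3 most like Lrrc25, Nfam1 and Clec4n (0.98 each). Ptgs2 was most like Ptgs2os (0.85), Emilin2 (0.84) and Cers6 (0.78), and Ptges most like Ptgs2os (0.78), Ptgs2 (0.75) and Insyn1 (0.71). Ptgs2os is named as the opposite strand of Ptgs2, and whether the counting used strand is not given in the sources used here, so their UMIs may not be separate. The closest genes were less alike for Il1r1 (C2cd2 0.82, Gstm2 0.81 and Ccdc68 0.77) and for Ptgs1 (Rgcc 0.76, Spryd3 0.70 and Mylip 0.69).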

How the data were processed

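UMI counts per gene and barcode were deposited by the authors as whole-number counts. Per the file headers the software was Cell Ranger 8.0.1, and the submitters' processing notes name GRCm39. Whether reads were counted by strand is not given in the sources used here. The totals were 71623116, 68644322, 100169054 and 128626912 UMIs over 5003, 6563, 16327 and 10887 barcodes in the adult injury, adult control, neonate injury and neonate control libraries. Age and injury in the labels define the 4 groups.

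A barcode was kept with 500 or more genes, 1000 or more UMIs and no more than 15% of UMIs from mitochondrial genes. Likely doublets (171, 299, 1773 and 870 barcodes) were those with the highest Scrublet scores (scanpy 1.11.5), taken at 0.8% for every 1000 barcodes. A cell was immune with at least 4 of 8 pan-immune markers and at most 1% of its UMIs in 8 stromal markers, and it was given the immune class with the highest share of its markers, of which at least 3 had to be detected. Other cells had at most 2 pan-immune markers and at least 3 markers and a share of 0.5 of a class list (0.8 for chondrocyte, myofibre and osteoblast lists), and stromal cells had at least 5 of 8 stromal markers and no other class. Subsets were taken by the same kind of rule from 7 resident, 6 lipid-associated, 8 tenocyte and 5 synovial lining markers. Ungated cells were 13.1%, 9.15%, 6.17% and 8.18%. The thresholds were set after the data were seen, and the genes and lists were chosen with earlier results of these data known.

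UMIs were summed per class and library. CPM have exact Poisson, shares exact binomial and log2 ratios exact binomial 95% intervals, for counting error only. The ratio steps were tested on simulated data. A list gene was counted with at least 50 UMIs over both libraries, and up to 4 genes with the largest absolute log2 ratio are named per list, or any gene of a list of 9 or fewer. For each of the 8 genes, the 3 most alike are named among genes with at least 20 CPM in a unit that are not gate markers, except 1 that is not reported here. Symbols listed more than once number 26, and the listing that comes before the others was used. Alternatives were other filters, kept doublets, a stricter gate, classes from joint Leiden clusters (resolution 2, without the 8 genes), equal weight per cell, another denominator, a pseudocount of 1, subsets and cells with Y-linked UMIs.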

Additional observations from a re-analysis of the deposited data

Results flagged for a closer look

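Listed here are the 7 cases, among the 8 genes in macrophages, stromal, endothelial and mural cells, in which the injury library stood above its control at one age and below it at the other with finite counting intervals that excluded 0 at both ages. Other genes had opposite signs without meeting this. The share of all genes that meet this rule was not counted, so the number of cases is not read as a result about these genes. In each case the difference between the ages was not tested, since each group is 1 library. In stromal cells the log2 ratio of injury over control for Ptgs2 was 2.87 in adults and -0.94 in neonates, a difference of 3.81. Stromal Il1r1 had 1.21 in adults and -0.26 in neonates, a difference of 1.47, and the neonatal value was 0.03 in cells with Y-linked UMIs. Stromal cells without tenocyte or lining markers had 241 CPM of Il1r1 in the adult injury and 184 CPM in the adult control library. The same subset had 71.9 CPM in the neonate injury and 76.0 CPM in the neonate control library. In mural cells Ptgs2 had 4.92 in adults and -2.21 in neonates, a difference of 7.13. Mural Ptgs2 rests on 8 UMIs in the adult control and 28 in the neonate injury library. The 8 stromal markers summed to 28930 CPM in adult injury and 3434 CPM in adult control mural cells. The part of stromal RNA in the Ptgs2 of mural and endothelial cells was not tested. In endothelial cells Ptgs2 had 4.21 and -0.89, a difference of 5.10, and Ptges had 1.42 and -1.13, a difference of 2.55, with the adult value given before the neonatal one. Endothelial Ptges rests on 15 UMIs in the adult injury and 9 in the adult control library, and on 10 in the neonate injury and 21 in the neonate control library, under the 50 UMIs over both libraries that a counted gene needed. Endothelial Ptgs1 ran the other way, with -1.77 in adults and 0.55 in neonates, a difference of -2.32. In macrophages Il1a had 2.62 in adults and -0.39 in neonates, a difference of 3.01.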

How the results depend on the processing

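Over 54 results and 577 alternatives, 495 values were called the same, 77 moved and 5 changed in sign. A value was the same within the counting interval of the reported value. For counts of list genes, which have no such interval, a limit on the fold between the counts was used instead. A change of sign was counted only where the reported interval excluded 0. The cause of these changes was not tested. Subsets, cells with Y-linked UMIs and the other added alternatives were chosen after seeing the data. No paired analysis was possible because each group is 1 library and no test was made. For Il1b in macrophages, the adult log2 ratio of 3.91 was 4.24 with a stricter gate, 4.26 with clusters and 4.53 in resident-marker cells. The neonatal 1.62 was 1.43 with doublets kept, 2.03 in cells with Y-linked UMIs and 0.25 in resident-marker cells. Adult control over neonate control, at -0.41, was -0.87 with a stricter gate, -0.84 with clusters and 0.09 in resident-marker cells. The difference between the ages, 2.30, was 2.78 with a stricter gate and 4.28 in resident-marker cells. For Ptgs2 in stromal cells, the adult 2.87 was 2.80 with doublets kept, 2.75 with a stricter gate, 2.59 with each cell weighing the same, 4.73 in tenocyte-marker cells and 1.87 in cells without tenocyte or lining markers. The neonatal -0.94 was -1.03 with clusters, -0.82 with equal weights, -0.43 in cells with Y-linked UMIs, -1.18 in tenocyte-marker cells and -0.81 without these markers. Adult control over neonate control, at -1.34, was -1.26 with doublets kept, -1.46 with clusters, -1.10 with equal weights, -3.27 in tenocyte-marker cells and -0.35 without these markers. Its difference between the ages, 3.81, was 3.41, 5.91 and 2.68 with equal weights, in tenocyte-marker cells and without these markers. Il1b in adult injury neutrophils, 10471 CPM, was 10930 with a looser filter, 10850 with clusters, 11683 with equal weights and 10877 without mitochondrial, ribosomal and hemoglobin UMIs. The 47.9% of adult injury macrophages with Il1b was 27.2% after thinning and 43.2% with clusters. Other changes of sign were neonatal Ptgs2 in resident-marker macrophages (-1.03), neonatal stromal Il1r1 (0.03) and Ptgs1 (0.19) in cells with Y-linked UMIs, and adult Ptges without tenocyte or lining markers (-0.22).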
